A study of Carica papaya with 12 samples.

Results

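Endoglucanase 25-like, TRINITY_DN2388_c0_g1, is a cell wall gene of papaya (Carica papaya), and its transcripts were followed in fruit flesh of 2 commercial varieties. Its members were all assembled transcripts whose identifier without the isoform suffix is TRINITY_DN2388_c0_g1, which gave 2 isoforms, i1 and i2, of 180368 transcripts, and 1 of 75259 Trinity genes. No other gene of the TRINITY_DN2388 read cluster was assembled. The gene was chosen by its measured levels in ‘RB1’ ripe replicates 1 to 3 and unripe ‘RB1’, and the study lists isoform i1 among the transcripts that differ between ripe ‘1B’ and ripe ‘RB1’. Values of those contrasts are therefore given as descriptions, without a test.

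The libraries were made from total RNA of the flesh of the red-fleshed ‘RB1’, labelled as sweet with a floral aroma, and the yellow-fleshed ‘1B’, which the study describes as bitter and musty. Each variety was picked at a ripe stage, with partly coloured skin, and at an unripe stage, with green skin, and 3 fruits per variety and stage gave 12 libraries in 4 groups. All fruits came from 1 plantation and received the postharvest fungicide Sportak (prochloraz), a day of warm storage and refrigerated transport, so no group was free of these treatments. Total estimated counts ran from 10949263 in ‘RB1’ ripe replicate 2 and 19359105 in ‘RB1’ unripe replicate 1 to 60100478 in ‘1B’ ripe replicate 2, and the other libraries had at least 45519006. ‘RB1’ ripe replicate 3 was set aside by the study as nearer to unripe fruit, so its values stand beside those of replicates 1 and 2 and enter no ripe ‘RB1’ mean unless stated. A level in 3 fruits of a plantation describes those fruits. Each p-value sets a difference between groups against the spread between fruits, which for fold changes was estimated with information from all features tested.

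Endoglucanases of this kind cut beta-linked glucan chains. In Arabidopsis the best known member, KORRIGAN, is anchored in membranes, works alongside the cellulose synthase complex and is needed for normal cellulose deposition. Papaya flesh softens strongly as it ripens, a process in which pectin, hemicellulose and cellulose of the wall are all remodelled. The study places isoform i1 in starch and sucrose metabolism and matches it to LOC110819632, endoglucanase 25-like, transcript variant X1, a protein-coding gene that RefSeq lists once in its papaya assembly. The function of the papaya gene was not measured here.

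The gene was measured in every library, with 387 to 4632 estimated counts, summed over the isoforms. Levels are CPM (estimated counts relative to library size) after TMM, a scaling that sets the bulk of genes level between libraries. Unripe ‘RB1’ had 27.1, 28.5 and 28.2 CPM, a mean of 27.96 ± 0.742 (SD, n = 3). Unripe ‘1B’ had 36.4, 35.8 and 28.4 CPM, a mean of 33.5 ± 4.44 (SD, n = 3). These unripe groups lay close together and their ranges overlapped. Ripe ‘RB1’ had 93.2 and 76.4 CPM in replicates 1 and 2, a mean of 84.8 ± 11.9 (SD, n = 2), but 8.70 CPM in replicate 3. Ripe ‘1B’ had 6.37, 6.29 and 5.35 CPM, a mean of 6.002 ± 0.565 (SD, n = 3). Thus the highest levels of the series and its lowest were both in ripe fruit, and ‘RB1’ ripe replicate 1 was 17.4-fold above ‘1B’ ripe replicate 3. In order of level, ripe ‘RB1’ replicates 1 and 2 stood first, the unripe groups were neighbours that did not separate, ‘RB1’ ripe replicate 3 followed, and ripe ‘1B’ was last. In flesh of mixed cells, fewer cells that carry a transcript and less RNA per cell cannot be told apart.

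**Figure D1:**
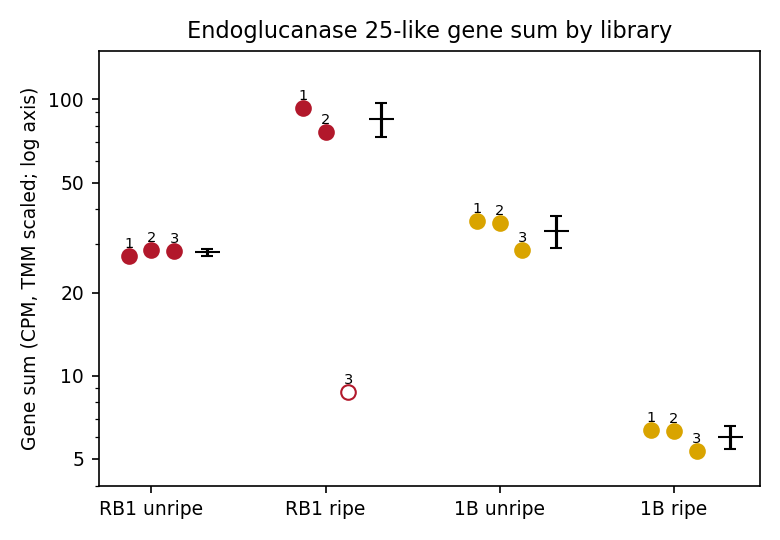
Gene sum of endoglucanase 25-like in each of the 12 libraries, in CPM after TMM scaling on a log axis. Numbered points are replicates, the open point is ‘RB1’ ripe replicate 3, and the bars are the mean ± SD of the filled points of a group. Ripe ‘RB1’ replicates 1 and 2 lie at 93.2 and 76.4 CPM, above all other libraries, and the ripe ‘1B’ libraries lie between 5.35 and 6.37 CPM, below all others.

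The order of ripe ‘RB1’ replicates 1 and 2, unripe fruit and ripe ‘1B’ was kept on 2 other scales. Scaled by library size alone, the means were 95.9 ± 8.34 CPM in ripe ‘RB1’ (SD, n = 2), 27.6 ± 1.38 in unripe ‘RB1’, 22.3 ± 3.16 in unripe ‘1B’ and 8.27 ± 1.10 in ripe ‘1B’ (SD, n = 3 each). In TPM, the length-corrected abundance, which the authors scaled by TMM, they were 23.4 ± 0.281 in ripe ‘RB1’ (SD, n = 2), 8.62 ± 0.190 in unripe ‘RB1’, 7.91 ± 0.821 in unripe ‘1B’ and 2.51 ± 0.239 in ripe ‘1B’ (SD, n = 3 each). What moved with the scale was the order of the unripe groups, and the place of ‘RB1’ ripe replicate 3 next to ripe ‘1B’. That replicate was above every ripe ‘1B’ library in TMM-scaled CPM, but its 9.05 CPM by library size and its 2.60 TPM fell inside the ripe ‘1B’ ranges of 7.06 to 9.22 CPM and 2.24 to 2.66 TPM. By library size the unripe groups separated, with 26.2 to 28.9 CPM in ‘RB1’ and 18.7 to 24.2 CPM in ‘1B’, whereas in TPM their ranges overlapped. On the library size scale the median gene itself had a log2 fold change of unripe ‘1B’ over unripe ‘RB1’ of -0.58, beside -0.31 for this gene. The share of all genes whose unripe groups separate was not counted.

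In unripe fruit, the comparison of ‘1B’ with ‘RB1’ asks whether the varieties already differed before ripening. The gene sum did not pass the thresholds of the study, which ask for both an adjusted p under 0.05 and a log2 fold change beyond 1.5 in either direction. The log2 fold change of ‘1B’ over ‘RB1’ was 0.21 ± 0.085 (SE, 3 against 3 libraries, adjusted p = 0.0424, edgeR's quasi-likelihood test over all genes), and it turned to -0.31 with library size only and to -0.12 and -0.13 on TPM. The unripe ‘RB1’ libraries also took part in the choice of the gene, so that this p is not independent of the choice and no difference is read from it. Over the alternatives the adjusted p ran from 0.000758 to 0.527. Over all 23956 genes tested, 15.1% passed both thresholds and 57.1% had an adjusted p under 0.05. Neither isoform passed either. The log2 fold change was 0.19 ± 0.32 for i1 (SE, adjusted p = 0.787) and 0.23 ± 0.20 for i2 (SE, adjusted p = 0.549), by the same edgeR test over 60891 transcripts, of which 12.8% were called.

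In ‘1B’, endoglucanase 25-like fell from the unripe to the ripe stage, and so did both of its isoforms. The 3 ripe libraries were all below the 3 unripe ones, at a mean that was 5.59-fold lower. The log2 fold change of ripe over unripe was -2.50 ± 0.11 (SE, 3 against 3 libraries, adjusted p = 4.40e-11, edgeR's quasi-likelihood test over 28998 genes). In this comparison 25.8% of all genes tested were called and 10.2% of all were called lower in ripe fruit, and in 29.4% of 32870 genes all ripe ‘1B’ libraries lay below all unripe ones. The ripe ‘1B’ libraries also took part in the contrast by which the study listed i1. The p-values of ripe against unripe ‘1B’, for the gene sum and both isoforms, are thus not independent of that listing. RNA quality moved with this comparison and with that of the unripe varieties, since in the study's quality report each unripe ‘1B’ sample scored above all samples of the other groups, and its part in the results was not tested.

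The size of this fall depended on the scaling. It was 2.70-fold by library size and 3.15-fold in TPM, and the log2 fold change of -1.43 by library size (adjusted p = 3.10e-09, edgeR) and of -1.34 on log2(TPM + 1) (adjusted p = 3.52e-06, limma) did not reach the threshold of 1.5. Over all 17 alternatives the adjusted p for the gene sum ran from 5.54e-109 to 4.81e-06, so the calls were lost by the size of the fold alone. Between these settings the median gene itself moved, from a log2 fold change of 0.22 with TMM to 1.28 with library size. Relative to that median gene, endoglucanase 25-like was lower by nearly the same amount with TMM (-2.72) and with library size (-2.71), which must be close because such scalings shift all genes of a library alike. On TPM, where this need not hold, it was lower by less, at -2.44 on log2(TPM + 0.1) and -1.64 on log2(TPM + 1). In unripe fruit the difference relative to the median gene was 0.27 with TMM and with library size, 0.19 on log2(TPM + 0.1) and 0.0098 on log2(TPM + 1). Of the genes called in ripe against unripe ‘1B’, 4540 were higher and 2952 lower with TMM, but 12594 were higher and 1086 lower with library size only.

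**Figure D2:**
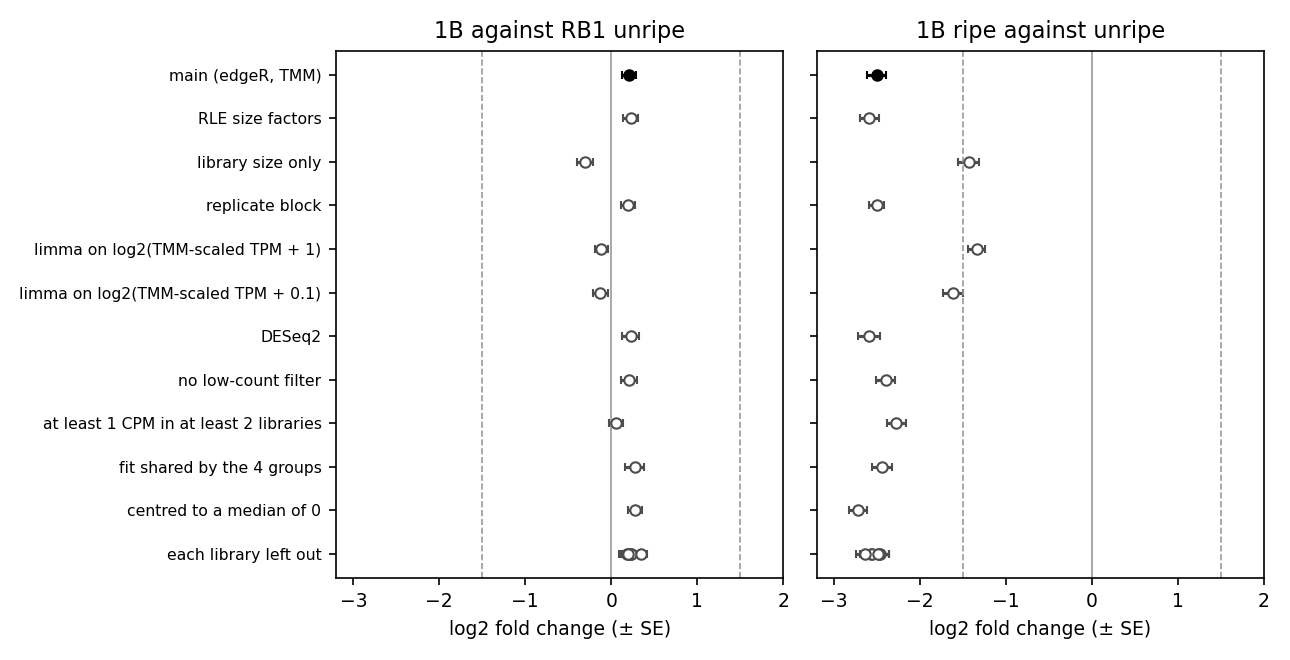
Log2 fold change of the gene sum (± SE) in unripe ‘1B’ against unripe ‘RB1’ (left) and in ripe against unripe ‘1B’ (right), under the main edgeR fit (filled) and each alternative (open). Dashed lines mark the threshold of 1.5. On the left the estimates run from -0.31 to 0.34 on both sides of 0, and on the right from -2.72 to -1.34, all below 0.

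In ‘RB1’ the gene was 3.03-fold higher in ripe replicates 1 and 2 than in unripe fruit, a log2 fold change of 1.58 given as a description. In this comparison 19.3% of genes were called. Both ripe libraries lay above all 3 unripe ones, which was so for 26.9% of genes. Replicate 3 went the other way and was 3.21-fold below the mean of unripe ‘RB1’ and 9.74-fold below the mean of replicates 1 and 2. It was lower than the 5 other ‘RB1’ libraries, as were 16.2% of the 32870 genes. Of the 8843 genes that were higher in replicates 1 and 2 than in all unripe ‘RB1’ libraries, 32.3% were lower in replicate 3 than in all 5 others. With replicate 3 kept, the ripe ‘RB1’ mean was 59.5 ± 44.7 CPM (SD, n = 3), a spread that spans the unripe level, and the log2 fold change was 1.093. In these fruits the gene thus took a value below the unripe level in 1 of 3 ripe ‘RB1’ fruits and in 3 of 3 ripe ‘1B’ fruits.

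In ripe fruit, ‘RB1’ replicates 1 and 2 had 14.1-fold more of the transcript than ‘1B’, a log2 fold change of ‘1B’ over ‘RB1’ of -3.82, again a description. In that comparison 29.5% of genes were called. The fold was 11.6 by library size and 9.33 in TPM, and with replicate 3 kept the log2 fold change was -3.33. Without replicate 3, the ripe ‘RB1’ libraries lay above all ripe ‘1B’ libraries on all 3 scales. With it kept, they did so in TMM-scaled CPM only. The share of all genes that separate in this way was not counted.

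Isoform i2 had more counts than i1 in 10 of 12 libraries and, per length, a higher TPM in all 12. In CPM, i2 had 18.7, 13.4 and 14.8 in unripe ‘RB1’, 60.1 and 49.7 in ripe ‘RB1’ replicates 1 and 2, 16.9, 23.5 and 16.9 in unripe ‘1B’, and 5.59, 4.47 and 4.86 in ripe ‘1B’. Isoform i1 had 7.55, 14.5 and 12.3 in unripe ‘RB1’, 33.4 and 22.5 in ripe ‘RB1’ replicates 1 and 2, 18.7, 11.4 and 11.1 in unripe ‘1B’, and 1.30, 2.43 and 0.977 in ripe ‘1B’. In ‘RB1’ ripe replicate 3 they were almost level, at 4.62 CPM of i2 and 3.98 CPM of i1. Both isoforms were highest in ripe ‘RB1’ replicates 1 and 2, and their ripe ‘1B’ levels lay below all unripe libraries. For i1 ‘RB1’ ripe replicate 3 was above every ripe ‘1B’ library, as in the gene sum, whereas its i2 level fell inside the ripe ‘1B’ range. In ripe against unripe ‘1B’ the log2 fold change was -3.17 ± 0.43 for i1 (SE, adjusted p = 0.00450) and -1.996 ± 0.18 for i2 (SE, adjusted p = 0.00117), with edgeR's quasi-likelihood test over 70876 transcripts, of which 18.8% were called and 7.72% were called lower. Of these calls, i2 fell short of the fold threshold by library size (-1.05) and on TPM with either pseudocount (-0.97 and -1.25), and i1 on log2(TPM + 1) (-1.38). Isoform i1 is the transcript that the study listed with the same ripe ‘1B’ libraries, so its p is not independent of that listing. As descriptions, the log2 fold change of ripe over unripe ‘RB1’ was 1.26 for i1 and 1.79 for i2, and that of ripe ‘1B’ over ripe ‘RB1’ was -4.19 for i1 and -3.50 for i2. The share of transcripts called was 4.79% and 16.3% there.

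**Figure D3:**
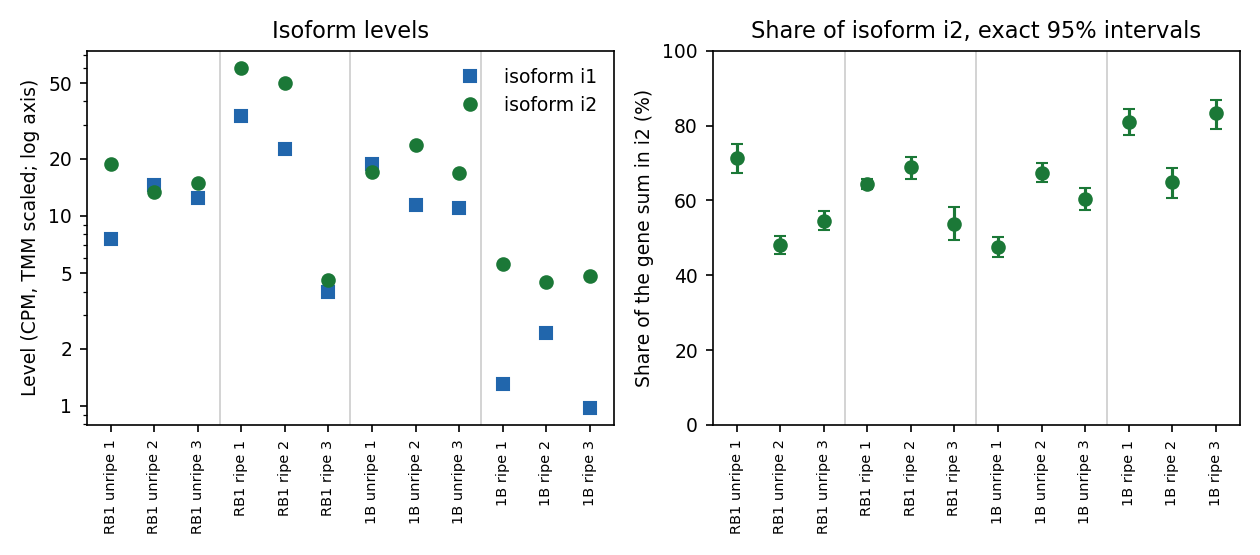
Left, CPM of isoforms i1 (squares) and i2 (circles) in each library after TMM scaling, on a log axis; right, the share of the gene sum in i2 with exact (Clopper-Pearson) 95% intervals, which cover counting error only. The i2 share runs from 47.6% to 83.3%, and the replicates of a group lie outside each other's intervals in several groups.

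The share of the gene sum in i2 was 71.2, 48.0 and 54.6% in unripe ‘RB1’, 64.3, 68.8 and 53.8% in ripe ‘RB1’, 47.6, 67.4 and 60.5% in unripe ‘1B’, and 81.1, 64.8 and 83.3% in ripe ‘1B’. In unripe fruit the varieties had nearly the same mean share, 58.5 ± 10.1% in ‘1B’ and 58.0 ± 11.95% in ‘RB1’ (SD, n = 3 each), a difference of 0.53 percentage points (exact two-sided permutation test, p = 1). In ‘1B’ the mean share was 76.4 ± 10.1% in ripe fruit, 17.9 percentage points above that of unripe fruit (SD, n = 3 each; exact two-sided permutation test, p = 0.2, where 0.1 is the smallest p that 3 against 3 libraries allow). The groups overlapped, since the 64.8% of ‘1B’ ripe replicate 2 was below the 67.4% of ‘1B’ unripe replicate 2, and a change in the isoform mixture was not shown. Per length the difference was 17.1 percentage points.

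In both unripe groups and in ripe ‘1B’ the replicates agreed more closely in the gene sum than in either isoform. Within unripe ‘RB1’ the coefficient of variation was 2.65% for the gene sum, 30.98% for i1 and 17.6% for i2. The unripe ‘RB1’ library with the least i1, replicate 1, had the most i2, and replicate 2 had the most i1 and the least i2. Within unripe ‘1B’ the coefficients were 13.2% for the sum, 31.4% for i1 and 20.1% for i2, and within ripe ‘1B’ 9.42%, 48.4% and 11.4%. Ripe ‘RB1’ replicates 1 and 2 differed from this, with coefficients of 13.98% for the sum, 27.4% for i1 and 13.4% for i2. The i1 share of unripe ‘RB1’ replicate 1 was 28.8% (exact Clopper-Pearson 95% interval 24.9 to 32.8%) against 52.0% in replicate 2 (49.5 to 54.4%). These intervals treat each read as assigned with certainty, whereas Salmon divides reads that fit both isoforms between them, and ‘RB1’ unripe replicate 1 was also the shallower library. The part of read assignment and depth in the isoform spread was not tested.

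Compared per length, the TPM of endoglucanase 25-like ranked above 84.1% to 96.9% of the genes above 0 in the same library. Those were 39733 to 67288 assembled genes, whereas 16023 genes reached 1 CPM in at least 2 libraries of the ‘1B’ stage comparison. The rank thus counts many genes at low levels. In ripe ‘1B’ the gene itself had 2.24 to 2.66 TPM. Among 8 genes, itself and the 7 listed as glycosidases next, its TPM was the 2nd highest in ripe ‘RB1’ replicates 1 and 2, 4th in ‘RB1’ ripe replicate 3 and in unripe ‘RB1’, 3rd or 4th in unripe ‘1B’ and 7th in all ripe ‘1B’ libraries.

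Other genes were taken from the study's table of names. They were grouped here as 7 cell wall glycosidases, a class that splits glycosidic bonds, and 5 genes that supply UDP-glucose, the substrate of cellulose synthase. The study places the 7 in starch and sucrose metabolism or in fructose and mannose metabolism, and whether they act in the wall was not measured. All 12 were tested in both comparisons. In ripe against unripe ‘1B’, 2 of the 7 glycosidases rose, 1 fell and 4 were not called, and 1 of the 5 UDP-glucose genes rose and 4 were not called. The median log2 fold change was 0.53 over the glycosidases and 0.43 over the UDP-glucose genes, beside 0.22 over all genes tested, whereas endoglucanase 25-like had -2.50. The directions depended on the scaling, since with library size only 4 glycosidases were called higher and 0 lower and 3 UDP-glucose genes higher and 0 lower, and with limma on log2(TPM + 1) 2 glycosidases were called higher and 0 lower and 0 UDP-glucose genes either way. With TMM, 15.7% of all 28998 genes tested were called higher and 10.2% lower. With library size only, 12594 of the 28998 were called higher and 1086 lower. With limma on log2(TPM + 1), 1232 were called higher and 618 lower.

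The glycosidase that fell with endoglucanase 25-like was mannan endo-1,4-beta-mannosidase 7 (TRINITY_DN4654_c1_g1), an enzyme that cuts mannan chains, with 45.4 ± 4.57 CPM in unripe and 8.43 ± 1.41 CPM in ripe ‘1B’ (SD, n = 3 each). Its log2 fold change was -2.46 ± 0.12 (SE, adjusted p = 1.09e-10, edgeR), but -1.39 by library size and -1.47 on log2(TPM + 1), both short of the fold threshold. The beta-glucosidases BoGH3B-like (TRINITY_DN3108_c0_g1) and 31-like (TRINITY_DN3009_c0_g1), of the family that releases glucose from glycosides, went the opposite way. BoGH3B-like rose from 1.87 ± 0.581 to 23.3 ± 4.45 CPM (SD, n = 3 each; a log2 fold change of 3.61 ± 0.18, SE; adjusted p = 2.38e-10, edgeR), and 31-like from 0.725 ± 0.273 to 8.22 ± 4.94 CPM (SD, n = 3 each; 3.48 ± 0.40, SE; adjusted p = 2.23e-06, edgeR). Sucrose synthase 2 (TRINITY_DN775_c0_g1), which makes UDP-glucose from sucrose, had 0.0541 to 0.194 CPM in unripe ‘1B’ and 4.73 to 7.04 CPM in ripe ‘1B’ and rose (log2 fold change 5.62 ± 0.32, SE; adjusted p = 7.20e-10, edgeR; 1.47 on log2(TPM + 1), short of the threshold). Among those not called were putative beta-glucosidase 41, beta-glucosidase 42-like, glucan endo-1,3-beta-glucosidase 3, sucrose synthase, sucrose synthase 3-like, sucrose synthase 5 and UTP--glucose-1-phosphate uridylyltransferase. The last glycosidase entry, TRINITY_DN4424_c0_g1, carries the study's endoglucanase class but is described there as glycolipid transfer protein 3, and it was not called either.

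**Figure D4:**
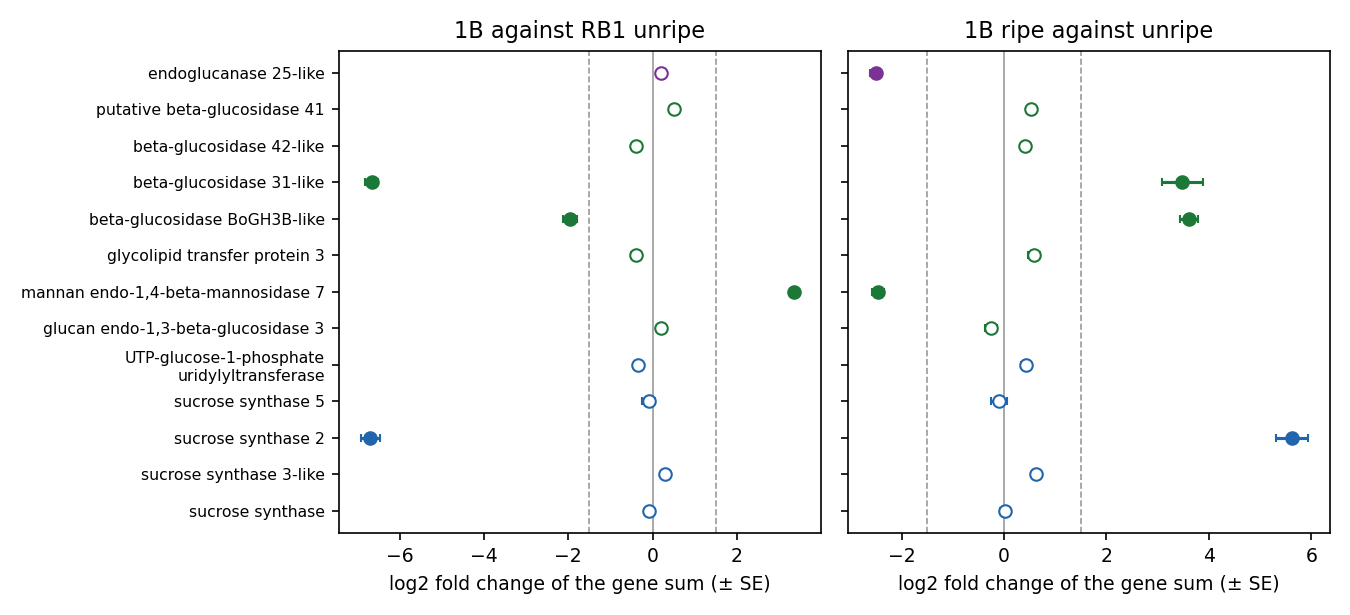
Log2 fold change of the gene sum (± SE, edgeR) of endoglucanase 25-like (purple), 7 cell wall glycosidases (green) and 5 genes of UDP-glucose supply (blue) in unripe ‘1B’ against unripe ‘RB1’ (left) and in ripe against unripe ‘1B’ (right); filled points passed both thresholds and dashed lines mark a log2 fold change of 1.5. On the right endoglucanase 25-like, at -2.50, and mannan endo-1,4-beta-mannosidase 7, at -2.46, are the genes called lower, while on the left endoglucanase 25-like lies near 0.

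In unripe fruit, where endoglucanase 25-like differed little between the varieties, 1 of the 7 glycosidases was higher in ‘1B’, 2 were lower and 4 were not called, and 1 of the 5 UDP-glucose genes was lower and 4 were not called. Of all genes, 7.85% were called higher and 7.28% lower. The median log2 fold change was -0.39 over the glycosidases and -0.10 over the UDP-glucose genes, beside -0.07 over all genes tested. Mannan endo-1,4-beta-mannosidase 7 (TRINITY_DN4654_c1_g1) was higher in ‘1B’, with 45.4 ± 4.57 CPM against 4.35 ± 0.651 CPM in unripe ‘RB1’ (SD, n = 3 each; a log2 fold change of 3.36, adjusted p = 3.10e-16, edgeR). Lower in ‘1B’ were beta-glucosidase 31-like (TRINITY_DN3009_c0_g1), with 70.6 ± 7.59 CPM in unripe ‘RB1’ (SD, n = 3; a log2 fold change of -6.66, adjusted p = 7.55e-19, edgeR), BoGH3B-like (TRINITY_DN3108_c0_g1), with 6.93 ± 0.971 CPM in ‘RB1’ (SD, n = 3; -1.96, adjusted p = 1.57e-09, edgeR), and sucrose synthase 2 (TRINITY_DN775_c0_g1), with 11.05 ± 1.02 CPM in ‘RB1’ (SD, n = 3; -6.69, adjusted p = 3.59e-16, edgeR). BoGH3B-like was short of the fold threshold on log2(TPM + 1), at -1.25. Sucrose synthase 2 had 0.0541 to 0.194 CPM in unripe ‘1B’, near the level of 3 counts, so the size of its fold is uncertain. On log2(TPM + 1) that fold was -1.89.

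The genes with the pattern most like that of endoglucanase 25-like were found from log2 CPM centred on each gene's mean over the 12 libraries, as the root mean square difference between the profiles. Over 13685 genes with a mean of at least 1 CPM, the median difference from endoglucanase 25-like was 1.33. The nearest were TRINITY_DN6171_c0_g1, at 0.240, and TRINITY_DN49431_c0_g1, at 0.250, neither of which has a name in the tables used here. TRINITY_DN49431_c0_g1 had 58.2 ± 10.4 CPM in ripe ‘RB1’ replicates 1 and 2 (SD, n = 2) and 4.32 CPM in replicate 3, 12.3 ± 0.259 in unripe ‘RB1’, 16.5 ± 1.89 in unripe ‘1B’ and 2.63 ± 0.427 in ripe ‘1B’ (SD, n = 3 each). TRINITY_DN6171_c0_g1 had 15.3 ± 1.26 CPM in ripe ‘RB1’ replicates 1 and 2 (SD, n = 2) and 1.87 CPM in replicate 3, 3.78 ± 0.385 in unripe ‘RB1’, 6.06 ± 0.878 in unripe ‘1B’ and 0.935 ± 0.152 in ripe ‘1B’ (SD, n = 3 each). Both were picked for their likeness over these libraries. Their high pair of ripe ‘RB1’ libraries, low replicate 3 and low ripe ‘1B’ level thus follow from that choice.

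Among 75 genes of the study's table, the nearest were probable acetyl-CoA acetyltransferase, cytosolic 2 (TRINITY_DN5472_c0_g1), an early enzyme of the mevalonate route to terpenes, at 0.664 and rank 236 of all, and diphosphomevalonate decarboxylase MVD2 (TRINITY_DN12097_c0_g1), a later enzyme of that route, at 0.752 and rank 462. The next was 4-alpha-glucanotransferase DPE1 (TRINITY_DN260_c0_g1), which acts on starch breakdown products, at 0.835 and rank 797. DPE1 had 41.8 ± 2.90 CPM in ripe ‘RB1’ replicates 1 and 2 (SD, n = 2), below its 51.4 ± 3.01 CPM in unripe ‘RB1’ (SD, n = 3), and so did not share the rise of replicates 1 and 2. All these profiles come from the same 12 libraries.

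**Figure D5:**
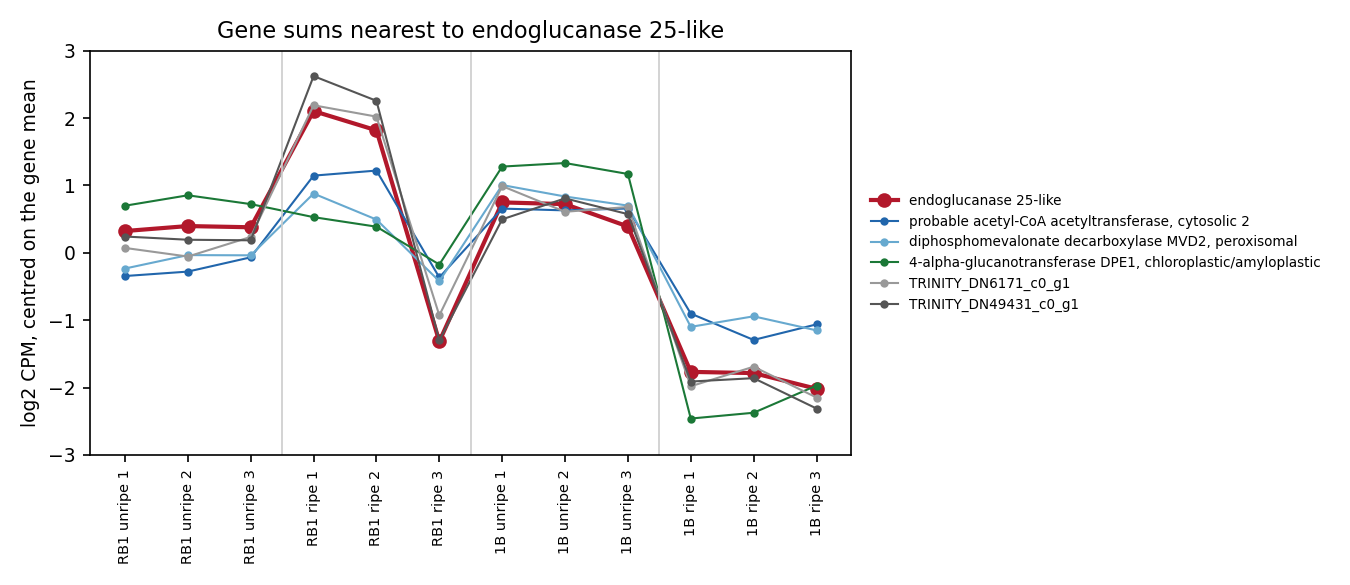
Log2 CPM centred on the gene's own mean over the 12 libraries, for endoglucanase 25-like (thick red line), the nearest named genes of the study's table and the nearest genes of any name. The grey profiles of TRINITY_DN6171_c0_g1 and TRINITY_DN49431_c0_g1 run close to the red one, with root mean square differences of 0.240 and 0.250, and the named genes at 0.664 to 0.835 depart from it mainly in ripe fruit.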

How the data were processed

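RNA-Seq of flesh from 12 fruits was read from 2 tables. The authors deposited expected counts per transcript, unnormalized, from Salmon 1.5.2. They had cleaned the reads with bbduk (BBMap 38.34), Trimmomatic 0.40 and FastQC 0.11.9 and built the transcripts de novo with Trinity 2.11.0. Salmon's TPM were scaled by TMM and deposited as a second table, treated here as a signal. A de novo assembly has no genome coordinates, and the assembled sequences were not analysed here.

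Counts were summed over isoforms for gene values and rounded. After filterByExpr and TMM, glmQLFit and glmQLFTest of edgeR 4.0.16 (R 4.3.3) gave folds and p, and the Benjamini-Hochberg adjustment covered every gene or transcript tested. Calls needed both an adjusted p under 0.05 and a log2 fold change beyond 1.5 in size, the study's thresholds. Displayed CPM use TMM over all 12 libraries, and fitted folds the TMM of the libraries compared. ‘RB1’ ripe replicate 3 was left out of fits of ripe ‘RB1’, as in the study. Each SE is the log2 fold change over the square root of F. Isoform shares were compared by an exact permutation test, and likeness used log2 CPM with a prior count of 2. A library's 3-count floor was 0.0499 to 0.274 CPM, and intervals cover counting error only.

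The members and lists were chosen with earlier results of these data known. Named were the gene, its isoforms, the 2 lists, and the 3 nearest named and 2 nearest other genes. Alternatives were RLE factors, library size only, DESeq2 1.42.0, limma 3.58.1 on log2 TPM plus 1 or 0.1, other filters, a fit shared by 4 groups, a replicate block, no fold threshold, centring on the median, and each library left out. Only the edgeR fit of gene counts was run on simulated data, with equal numbers of genes raised and lowered, unlike the uneven calls in ‘1B’. No result rests on it. Tables were read with Python 3.11.15.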

Additional observations from a re-analysis of the deposited data

Results flagged for a closer look

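The gene sum, i1 and i2 each moved in opposite directions between the stages of the 2 varieties, with every ripe ‘1B’ library below all unripe ‘1B’ libraries and ‘RB1’ ripe replicates 1 and 2 above all unripe ‘RB1’ libraries. The change in ‘1B’ minus the change in ‘RB1’ was -4.04 on the log2 scale for the gene sum, -4.23 for i1 and -3.61 for i2, over 11 libraries. It was not tested for this gene, since the ‘RB1’ contrast had a part in the choice. Of 32870 genes, 29.4% had the ‘1B’ part of this pattern and 26.9% the ‘RB1’ part, and the share with both was not counted. Over all features, 12145 of 36566 genes and 9255 of 103938 transcripts passed both thresholds for this difference, in either direction. ‘RB1’ ripe replicate 3 lay below unripe ‘RB1’, as ripe ‘1B’ lay below unripe ‘1B’, and with it kept the difference was -3.57 for the gene sum, -3.92 for i1 and -3.23 for i2. With it kept, 7257 of 32870 genes and 4300 of 91774 transcripts passed both thresholds.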

How the results depend on the processing

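In ripe against unripe ‘1B’, the gene sum was below 0 under all 17 alternatives and called under 15, with log2 fold changes of -2.72 to -1.34. Among the 17, no fold threshold and centring on the median reuse the main fit. With the main value at -2.50 and the median gene at 0.22, neither could end the call. Library size only (-1.43) and limma on log2(TPM + 1) (-1.34) ended the call by the fold alone. For i1 limma on log2(TPM + 1) gave -1.38, and for i2 library size gave -1.05 and limma -0.97 and -1.25, all under the fold threshold. In unripe fruit the gene sum passed at 0.21 without a fold threshold, as did 57.1% of 23956 genes. Since the unripe ‘RB1’ libraries took part in the choice of the gene, no difference is read from that p. The gene sum in unripe fruit turned to -0.31 with library size and to -0.12 and -0.13 with limma. It ran from 0.18 to 0.34 with each library left out. There i1 turned to -0.33, -0.10 and -0.13 and i2 to -0.30, -0.095 and -0.11 with the same settings, and with each library left out i1 ran from -0.063 to 0.41 and i2 from 0.07 to 0.39. The difference in unripe i2 share ran from -4.43 to 7.17 percentage points with each library left out. Of the descriptions, ripe ‘1B’ over ripe ‘RB1’ was -3.54 by library size, -2.80 with limma, -3.33 with replicate 3 kept and -4.01 to -3.61 with each library left out. Ripe over unripe ‘RB1’ was 1.80, 1.35, 1.093 and 1.43 to 1.74. The cause was not tested.

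The number of genes called, 3625 in unripe fruit and 7492 in ‘1B’ between stages, became 982 and 1850 with limma on log2(TPM + 1), 5697 and 12479 with no low-count filter, 2085 and 4177 with at least 1 CPM in at least 2 libraries, 13668 and 19402 with no fold threshold, and 13680 in ‘1B’ by library size. Calls in unripe fruit were 51.9% higher with TMM, 23.4% with library size and 40.4% with limma on log2(TPM + 0.1). In ‘1B’ they were 60.6%, 92.1% and 84.6%. The list genes called, from 7 glycosidases and 5 UDP-glucose genes, were 4 in each comparison. They became 9 in each with no fold threshold, and in ‘1B’ 7 by library size and 2 with limma on log2(TPM + 1). Of all genes tested, 15.1% were called in unripe fruit and 25.8% in ‘1B’, and 57.1% and 66.9% with no fold threshold. In ‘1B’ the share was 47.2% by library size and 6.38% with limma on log2(TPM + 1).

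Replicate numbers did not pair the fruits, since same-numbered libraries had correlations of -0.0041 to 0.0156. With a replicate block the gene sum was 0.20 in unripe fruit (adjusted p = 0.0533, edgeR) and -2.50 in ‘1B’, and no call of the gene or its isoforms changed. The sum over other genes of the TRINITY_DN2388 cluster was not run, as the cluster holds 1 gene. Ripe ‘1B’, ‘RB1’ ripe replicate 3 and ‘RB1’ unripe replicate 1 had the fewest counts of the gene, 387 to 554, which limits the precision of their isoform shares.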
